A study of Mus musculus with 3 samples.

Results

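Proneural transcription factors and neuronal RNA-binding proteins were examined in day 10 mouse embryoid bodies of a Dido mutant and of wild type. The group was chosen by gene name and holds 8 of the 30119 genes on the array: Neurog1, Neurog2, Neurod1, Nhlh1 and Olig2 among the transcription factors, and Elavl3, Elavl4 and Msi1 among the RNA-binding proteins. All 8 were found on the array, on 12 of its 39429 probes, and all 8 passed the filter on dim probes that left 19667 genes to test.

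Proneural factors are basic helix-loop-helix (bHLH) proteins that pair with broadly expressed E proteins, bind the DNA word CANNTG (the E-box) and drive neural progenitors to leave the cell cycle and become neurons. They are held down in progenitors by the Hes and Hey repressors, which lie downstream of Notch, and by the Id proteins, which take up their E protein partners. They switch on the Notch ligand Dll1, so that neighbouring cells are kept as progenitors. RNA-binding proteins mark the same path: Msi1 restrains translation in progenitors, and the Elavl (Hu) proteins stabilise and splice AU-rich transcripts in newborn and mature neurons.

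Embryoid bodies are floating aggregates of differentiating embryonic stem cells, and hold mixtures of cell types. Both groups were grown for 10 days in low attachment plates, in the absence of the self-renewal cytokine LIF. The mutant, Dido3deltaCT+HADidoNT, carries a Dido3 protein with a shortened C-terminal end and also overexpresses the N-terminal Dido region that holds the PHD domain, the reader module shared by the Dido isoforms; the control was wild type. The labels give 3 biological replicates of each genotype but not whether they came from separate clones, nor what drives the overexpressed protein. Each of 3 arrays took 1 mutant and 1 wild-type RNA in different dyes: the mutant RNA of replicates 1 and 3 carried Cy3, and that of replicate 2 carried Cy5. A feature of replicate 2 and a feature of the dye therefore cannot be told apart.

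Signal below is the brightness of a spot after the scanner software subtracted its background, in arbitrary units, with no correction for dye. A log2 ratio is that of mutant over wild type after background correction and loess normalisation within the array, negative when the mutant was lower. A level is the normalised log2 brightness of 1 channel, and is compared only within a probe. Between 64.8% and 76.0% of spots were well above background in each RNA, and no spot was saturated. The log2 ratios of all genes correlated at 0.79 between arrays 1 and 3, at 0.38 between arrays 1 and 2 and at 0.19 between arrays 2 and 3, across genes, which are not independent replicates.

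The windows before the transcription start are shown for 3 members that have the E-box, because proneural factors bind that word. They are the 250 bases upstream of an annotated start in RefSeq (GRCm38.p6), on the minus strand of the genome, written 5′ to 3′ with each CANNTG in capitals. The word is its own reverse complement in form, so 1 strand covers both. The 3 windows are Nhlh1, chr1:172057597-172057846, Elavl3, chr9:22052024-22052273, and the second of the 4 annotated starts of Elavl4, chr4:110287528-110287777.
Nhlh1: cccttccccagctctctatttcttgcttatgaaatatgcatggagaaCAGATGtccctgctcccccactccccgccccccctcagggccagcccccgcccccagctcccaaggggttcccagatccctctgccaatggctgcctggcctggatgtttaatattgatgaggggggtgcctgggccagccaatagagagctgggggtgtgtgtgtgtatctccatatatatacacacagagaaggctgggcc
Elavl3: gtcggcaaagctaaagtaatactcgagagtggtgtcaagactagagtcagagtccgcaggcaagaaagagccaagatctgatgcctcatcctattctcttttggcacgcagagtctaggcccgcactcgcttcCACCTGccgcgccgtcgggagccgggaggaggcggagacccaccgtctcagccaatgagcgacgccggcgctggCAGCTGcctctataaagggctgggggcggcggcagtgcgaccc
Elavl4: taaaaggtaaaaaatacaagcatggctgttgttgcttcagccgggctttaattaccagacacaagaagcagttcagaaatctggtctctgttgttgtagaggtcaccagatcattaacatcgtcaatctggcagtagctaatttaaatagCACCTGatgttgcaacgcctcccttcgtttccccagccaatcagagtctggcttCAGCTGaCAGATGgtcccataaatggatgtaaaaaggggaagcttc

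Nhlh1 held 1 E-box in this window, CAGATG. Elavl3 held 2, CACCTG and CAGCTG, and Elavl4 held the same pair and CAGATG. Neurod1 had 1, CATATG, and the windows of Neurog1, Neurog2 and Olig2 had 0. The other starts of Elavl4 had 0, 3 and 1; the window with 3 overlaps the one printed. Of 32851 promoters of the same length, 66.2% held CANNTG at least once and 14.4% held CAGATG on either strand, so a match is common. The sequences were matched by symbol for 7 of the 8 members, and Msi1 had no entry. These matches describe the letters in the windows and nothing about binding in the cells.

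The 8 members were mostly lower in the mutant, unevenly over the arrays, and none passed the test. The limma test over all 19667 genes, two-sided with Benjamini-Hochberg adjustment, called 325 genes at an adjusted p of 0.05, which is 1.65%, with 1.27% higher and 0.386% lower in the mutant; 0 of the 8 members were called. The count of all genes called was 0 when the local background was not limited (3015 at an unadjusted p under 0.05). Without adjustment, 4 of the 8 members had a p under 0.05 and were lower, Neurog2, Neurod1, Elavl4 and Msi1, against 7.77% of all genes. The Neurod1 probe counted was kept through wild type alone, so its sign is not independent of the filter. The second Neurod1 probe, well above background in both genotypes, was also lower, with an unadjusted p of 0.0119 in the limma fit of single probes. The smallest adjusted p of a member was 0.143, for Elavl4. A member that was not called may still differ. In simulated data limma called 0 of 100 genes with a true log2 change of 2. Of these 100, 96% had an unadjusted p under 0.05. Far fewer genes were changed there than the 3910 with an unadjusted p under 0.05 in the real data. The adjustment was therefore stricter there, and the simulation cannot give the rate of missed changes here. Elavl3 had the only positive mean. The median of the members' mean log2 ratios was -0.91, against -0.01 for all genes tested. Per array, the members' median was -0.93 on array 1, -0.17 on array 2 and -1.58 on array 3, where the medians of all genes were 0.03, 0.01 and 0.02. In these mixed cultures, fewer cells of a type and less RNA per cell cannot be told apart.

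Neurog2, a proneural factor that commits progenitors to neurons, had the lowest mean log2 ratio of the members. Its wild-type signal was 406 on array 1, 59.4 on array 2 and 2104 on array 3, and its mutant signal was 20.5, 59.5 and 76.4. Wild type was bright on arrays 1 and 3 and near the mutant on array 2, and no mutant replicate reached the brightness of wild type on arrays 1 and 3. Its log2 ratios were -2.40, -0.20 and -4.16, a mean of -2.25 ± 1.98 (SD, n = 3), or 4.77-fold lower, with an unadjusted p of 0.0338 and an adjusted p of 0.207 in limma. After normalisation every mutant level was below every wild-type level, so the genotypes did not overlap, although the closest pair of levels was 6.94 in the mutant and 7.14 in wild type, both on array 2.

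Neurog1, a relative of Neurog2 best known in cranial sensory neurons, showed another pattern. Its wild-type signal was 143, 20.8 and 465 on arrays 1, 2 and 3, and its mutant signal 27.2, 31.0 and 395. Both genotypes were bright on array 3, and the genotypes overlapped. The log2 ratios were -1.16, 0.06 and -0.41, with a mean of -0.50 ± 0.61 and an adjusted p of 0.419 in limma. It was the only member whose mutant level was highest in replicate 3 by at least 1 log2 unit, a pattern of 2.68% of all genes. Wild type was well above background on 2 of the 3 arrays for this probe.

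Neurod1 acts after the neurogenins in neuronal differentiation and also serves endocrine cells of the gut and pancreas. On its brighter probe the wild-type signal was 74.5, 72.3 and 508 and the mutant signal 10.5, 80.6 and 119. The mutant was dim on array 1, where it was not well above background, and wild type stood out on array 3. Arrays 1, 2 and 3 gave log2 ratios of -0.83, -0.20 and -1.82, a mean of -0.95 ± 0.82, with an adjusted p of 0.242 in limma. The second probe read -0.49, -0.94 and -1.12, with a mean of -0.85 ± 0.33. Both probes were lower in the mutant on all 3 arrays, but only the brighter one shows array 2 nearest to 0. On the brightest probes Neurod1 was also the only member whose wild-type level was not lowest in replicate 2: its levels in replicates 1 and 2 were both 7.33.

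Nhlh1, a bHLH factor switched on in newborn neurons, was measured by 2 probes that disagreed in sign. With the brighter probe the wild-type signal was 96.8, 42.1 and 250.3 and the mutant signal 71.4, 50.1 and 87.3. The signals overlapped, and wild type was bright on array 3 only. This probe had log2 ratios of -0.24, -0.14 and -1.24, a mean of -0.54 ± 0.61, with an adjusted p of 0.390 in limma. The other probe read 0.09, 0.24 and 0.26, a mean of 0.20 ± 0.09.

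Olig2 directs motor neuron progenitors and later oligodendrocytes. Its wild-type signal was 121, 24.4 and 662 and its mutant signal 19.8, 25.7 and 26.6. The mutant signal was low on every array; on array 3 it lay under the 99th percentile of the negative control spots in that channel, 27.4. As log2 ratios these were -1.03, -0.13 and -3.20, a mean of -1.45 ± 1.58, or 2.74-fold lower, with an adjusted p of 0.291 in limma. The genotypes overlapped in level, by the wild type of array 2, at 6.72 against 6.76 for the mutant of array 1.

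Among the RNA-binding proteins, Elavl4 (HuD), a marker of postmitotic neurons, had the largest difference. The brighter probe had a wild-type signal of 751, 220 and 2446 and a mutant signal of 97.7, 178 and 220.4. The mutant was dimmer on every array, and its highest signal was about that of the dimmest wild type. The log2 ratios were -2.36, -0.54 and -3.32, a mean of -2.07 ± 1.41, or 4.20-fold lower, with an unadjusted p of 0.0152 and an adjusted p of 0.143 in limma. The second probe read -0.64, -0.25 and -2.40, a mean of -1.10 ± 1.15, with the same order of arrays. The mutant levels of the brighter probe spanned 7.69 to 7.81 and the wild-type levels 8.35 to 11.06, so the genotypes did not overlap.

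Elavl3 (HuC), made in neurons from the time they are born, did not follow Elavl4. Its wild-type signal was 114, 44.8 and 575 and its mutant signal 225, 162 and 452. The mutant was the brighter on arrays 1 and 2 and the dimmer on array 3. Its log2 ratios were 0.70, 0.64 and -0.51, a mean of 0.28 ± 0.68, with an adjusted p of 0.684 in limma. Its wild-type signals had the same order of replicates as those of Elavl4, with replicate 3 highest and replicate 2 lowest. The difference between the Elavl3 and Elavl4 ratios was not tested.

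Msi1 (Musashi 1), an RNA-binding protein of neural progenitors, had the steadiest ratios of the members on its brighter probe. The wild-type signal was 237, 157 and 410 and the mutant signal 116, 128 and 146. Every mutant signal was below every wild-type signal. The log2 ratios were -0.72, -0.53 and -1.34, a mean of -0.86 ± 0.42, or 1.82-fold lower, with an unadjusted p of 0.0166 and an adjusted p of 0.149 in limma. The second probe read -0.35, 0.07 and -0.45, a mean of -0.24 ± 0.28. The probes thus differed in size and, on array 2, in sign.

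The probes of 3 members are printed, Neurod1 and Msi1 because their probes differed and Neurog1 because its mutant was bright on array 3. Positions are those of the array files (mm9): Neurog1 at chr13:56352616-56352675 on the minus strand, Neurod1 at chr2:79294309-79294368 on the minus strand, and Msi1 at chr5:115890516-115890575 on the plus strand. Exon annotation of that build was not used here.
Neurog1: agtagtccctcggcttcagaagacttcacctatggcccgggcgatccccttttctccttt
Neurod1, brighter probe: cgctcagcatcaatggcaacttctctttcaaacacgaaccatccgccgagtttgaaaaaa
Msi1, brighter probe: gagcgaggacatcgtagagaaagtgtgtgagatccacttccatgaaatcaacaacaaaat

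**Figure D1:**
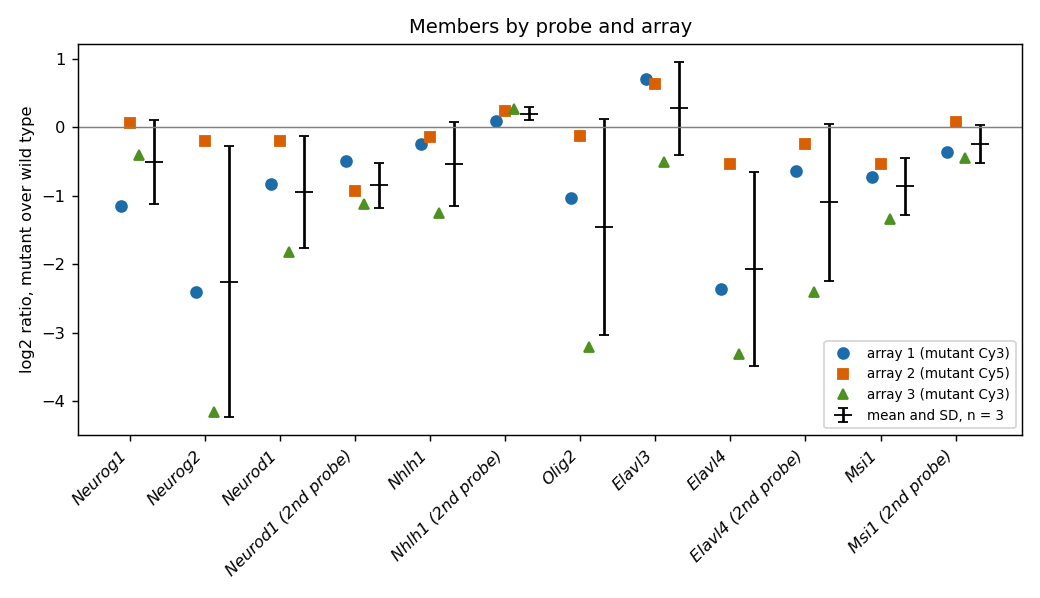
Log2 ratio of mutant over wild type for every probe of the 8 genes, with 1 point for each array and a bar for the mean and SD of 3 arrays. Array 2 lies nearest to 0 for most probes, and Neurog2, Olig2 and the brighter probe of Elavl4 are at -3.20 or lower on array 3.

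On the brightest probe of each gene, 6 of the 8 members had a negative ratio on all 3 arrays, against 19.1% of all genes. They were Neurog2, Neurod1, Nhlh1, Olig2, Elavl4 and Msi1, of which Neurod1 was kept through wild type alone. Second probes were positive for Nhlh1 on all 3 arrays and for Msi1 on array 2. With the mean of a gene's probes the count was 5. At least 2-fold lower on arrays 1 and 3 were 3 of 8, Neurog2, Olig2 and Elavl4 (second probe -0.64 on array 1), against 4.05%. The same 3 had a mean log2 ratio of -1 or lower, against 4.39%. At least 2-fold lower on all 3 arrays were 0 of 8, against 1.08%. The members thus differed less on array 2 than on the others.

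On the brightest probes, normalised levels varied more between the wild-type than between the mutant RNAs. The SD of the wild-type levels was above that of the mutant levels for 8 of 8 members, against 54.1% of all genes, and at least 2 times as large for 6 of 8, against 20.7%. For Neurog2 it was 1.87 in wild type and 0.12 in the mutant, for Elavl4 1.37 and 0.06, and for Olig2 1.33 and 0.30. Neurog1 was the nearest to equal, at 1.12 and 0.97. The offset of 50 units added before the log narrows the spread of dim signals: the mutant signals of Neurog2, from 20.5 to 76.4, became levels from 6.71 to 6.94, so part of its small mutant SD is set by the offset. On the second probe of Msi1 the mutant SD was the larger, 0.36 against 0.12 in wild type. On the brightest probes the wild-type level was lowest in replicate 2 for 7 of 8 members, against 35.3%, and in the order of replicates 3, 1 and 2 for the same 7, against 15% of all genes. The second probe of Msi1 read 7.86, 7.82 and 7.64 in wild-type replicates 1, 2 and 3, lowest in replicate 3. That of Nhlh1 read 7.27, 7.02 and 7.20, in the order of replicates 1, 3 and 2.

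Wild-type replicate 2 was at least 1 log2 unit below the mean of the wild-type replicates 1 and 3 for 5 of 8 members, Neurog1, Neurog2, Olig2, Elavl3 and Elavl4, against 7.08% of all genes. The drop was 2.88 for Neurog2, 2.21 for Elavl4, 1.86 for Olig2, 1.78 for Neurog1 and 1.36 for Elavl3. On the brightest probes the smallest drops were those of Msi1, 0.63, and Neurod1, 0.84. Over the 8 members the median drop was 1.57, while the same difference in the mutant had a median of 0.02. Every mutant level was below every wild-type level for 4 of 8 members, Neurog2, Neurod1, Elavl4 and Msi1, against 8.58% of all genes. The Neurod1 probe counted was kept through wild type alone, and on the second probe of Msi1 the levels overlapped.

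**Figure D2:**
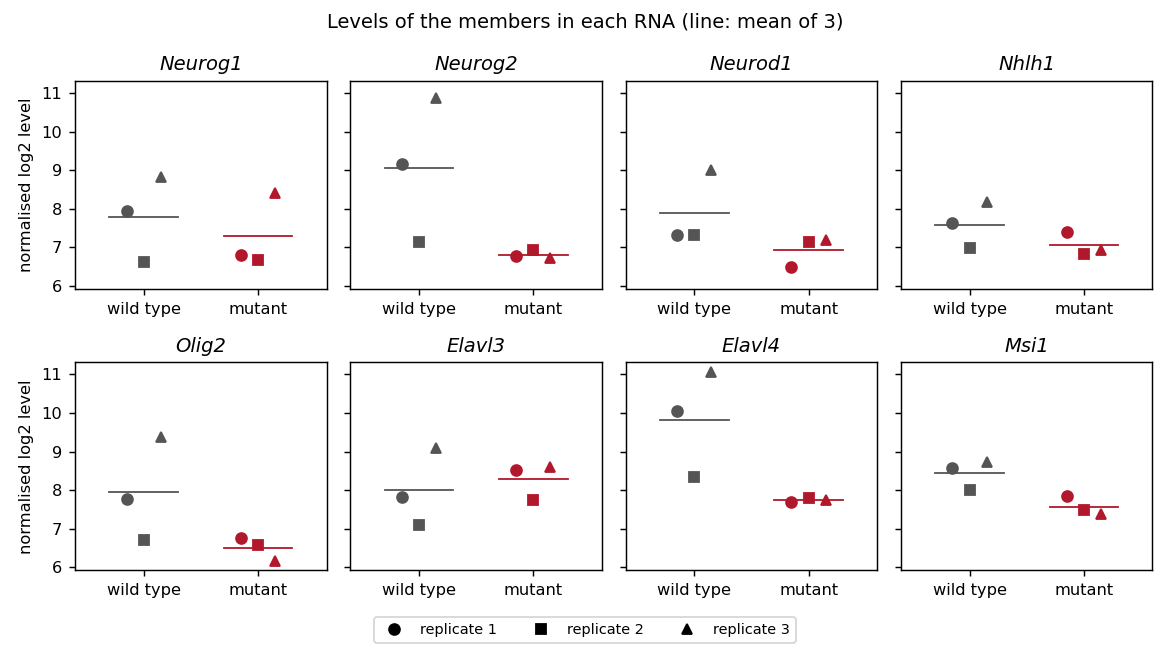
Normalised log2 level of the brightest probe of each member in the 3 wild-type and 3 mutant RNAs, with 1 panel for each gene, a symbol for each replicate and a line at the mean; heights compare within a panel only. Wild-type replicate 2 is the lowest wild-type point in every panel but that of Neurod1, and the mutant points of Neurog2 and Elavl4 lie within a narrow band.

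Markers of cell types also differed between the replicates. The 8 neural progenitor markers, among them Sox1 and Fabp7, had a summed normalised brightness of 41080, 6319 and 55780 in wild-type replicates 1, 2 and 3 and of 3351, 3921 and 6324 in the mutant. Of these 8, 6 were lower on all arrays, against 19.1% of all genes. The 8 neuron markers summed to 8925, 7171 and 21100 in wild type and to 7541, 5921 and 6156 in the mutant, with 7 of 8 lower on all arrays (against the same 19.1%). Much of the neuron sum in the mutant was Snap25, the one marker higher there (signal, not normalised, 4895, 4785 and 4417 against 2253, 3861 and 3264 in wild type). In wild-type replicate 3, Map2, Tubb3 and Dcx were brighter than Snap25, with signals of 6364, 5017 and 3555. The median log2 level of the list was 9.77, 8.42 and 11.45 in wild type and 7.26, 7.91 and 8.33 in the mutant. The 6 visceral endoderm markers summed to 35790, 137400 and 65340 in wild type and to between 241000 and 393500 in the mutant, and the 6 cardiac muscle markers to between 4005 and 9263 and between 13760 and 76360. On the brightest probes, wild-type replicate 2 was the lowest wild type for every member but Neurod1. It had the lowest neural progenitor and neuron sums and the highest visceral endoderm sum among the wild types. The sums for oligodendrocyte lineage and for peripheral and sensory neurons, given below, were instead highest in that replicate. The part of this makeup in the members' ratios was not tested.

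Among pluripotency markers, Zfp42, Pou5f1 and Esrrb were brightest in the mutant of replicate 3, where Neurog1 was bright as well, while Nanog was not: its mutant signal was 98.6, 99.6 and 56.1. The summed brightness over 5 genes was 12660, 10940 and 63120 in the mutant and between 28240 and 40460 in wild type, and the signal of Pou5f1 (Oct4) in the mutant was 1068, 2100 and 22280. Their part in the Neurog1 and Elavl3 values was not tested. Of 5 oligodendrocyte lineage genes measured, 1 was lower on all arrays, which is near the 19.1% of all genes. The 6 listed summed to 5776, 8491 and 7013 in wild-type replicates 1, 2 and 3 and to between 5520 and 7089 in the mutant. Of the 6 measured markers of peripheral and sensory neurons, 4 were lower on all arrays, against 19.1% of all genes. Their median log2 ratio was -0.35. The list of 7 summed to 1726, 2418 and 2332 in wild-type replicates 1, 2 and 3 and to between 1826 and 2054 in the mutant. Endocrine markers of gut and pancreas, whose cells also use Neurod1, summed to between 7133 and 9328 in wild type and between 6891 and 9685 in the mutant over 14 genes. These sums hold differences of both signs: Ghrl (ghrelin) rose, with a mutant signal of 4391, 7302 and 4800 against 787, 533 and 764 in wild type and a mean log2 ratio of 2.70 ± 0.62 (adjusted p = 0.0420 in limma), while Sst (somatostatin) had a mean of -2.52 ± 2.41 and an adjusted p of 0.234. No gene, Ghrl included, was called without replicate 1, without replicate 3, with no limit on the local background or with the authors' deposited values. Of the endocrine list, Pax4, Gcg and Gast were not tested, as they did not pass the filter.

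Other neurogenic bHLH factors mostly had a negative mean log2 ratio. Of 11 listed, 6 passed the filter; Atoh1, Neurod2, Neurod4, Neurod6 and Olig1 did not. The median log2 ratio of these 6 was -0.78, 2 of 6 were lower on all arrays (against 19.1% of all genes) and 0 were called. Those 2, Nhlh2 and Bhlhe22, were not kept when both genotypes had to be well above background. Their sign is therefore not independent of the filter. Nhlh2, the close relative of Nhlh1, read -2.05, -0.29 and -3.86, a mean of -2.07 ± 1.79 with an adjusted p of 0.203 in limma. Its mutant signal was 1.24 and 13.1 on arrays 1 and 2, under the 99th percentile of the negative control spots (5.69 and 13.2), so the size of its ratio follows the background step, and the scanner's log ratio gave -4.16. Bhlhe22, a factor of postmitotic neurons, read -0.65, -0.73 and -1.64, a mean of -1.01 ± 0.55 with an adjusted p of 0.144. Both had their largest difference on array 3.

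The E proteins, which pair with the proneural factors, had a median log2 ratio of 0.09, and 0 of 3 were called. Tcf3 was lower on all arrays, at -0.22, -0.04 and -0.72. Tcf4, the one with the smallest p, read 1.01, 1.14 and 0.27, a mean of 0.81 ± 0.47 with an adjusted p of 0.181 in limma. Its second probe had a mean of -0.06, and the mean of its probes gave 0.37, with an adjusted p of 0.521.

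Of 9 listed repressors of proneural action, 1 rose and 0 fell by the test, with a median log2 ratio of 0.48. The one that rose was Rest, which silences neuronal genes outside neurons. Its signal was 2576, 6492 and 9978 in the mutant and 625, 666 and 1234 in wild type, so every mutant signal was above every wild-type signal. Its log2 ratios were 1.87, 2.96 and 2.73, a mean of 2.52 ± 0.57 or 5.73-fold, with an adjusted p of 0.0420 in limma. A second, dim probe of Rest read 0.21, 0.04 and 0.60, a mean of 0.28 ± 0.29. With the mean of both probes the gene read 1.40, with an adjusted p of 0.0551, and the call also ended without replicate 1 (0.202), without replicate 3 (0.149) with the authors' deposited values (0.0599) and with no limit on the local background (0.168).

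Other repressors had means of both signs. Hes5, the Notch effector of neural progenitors, read -4.45, -0.43 and -4.64, a mean of -3.17 ± 2.38 with an adjusted p of 0.158 in limma. Id4 read -2.57, -0.19 and -3.18, a mean of -1.98 ± 1.58 with an adjusted p of 0.181. Hey2, a Notch effector of heart and vessels, read 1.09, 1.11 and 0.45, a mean of 0.88 ± 0.37 with an adjusted p of 0.131. Hes5 and Id4 had the same order of arrays as Neurog2, with array 2 near 0.

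Genes known to be switched on by proneural factors were measured for 17 of 22. Their median log2 ratio was -0.29, 4 were lower and 2 higher on all arrays (against 19.1% and 22.5% of all genes), 7 were at least 2-fold lower on arrays 1 and 3 (against 4.05%), and 0 were called. The Notch ligand Dll1 read -1.74, -1.15 and -2.84, a mean of -1.91 ± 0.86, and Dll3 read -2.03, -0.95 and -2.004, a mean of -1.66 ± 0.61, with adjusted p of 0.0797 and 0.0681 in limma. Insm1, a zinc finger factor of newborn neurons and endocrine cells, read -3.22, -0.58 and -3.94, a mean of -2.58 ± 1.77 with an adjusted p of 0.140. Cbfa2t3, a transcriptional corepressor, had positive ratios of 1.10, 1.25 and 0.93, a mean of 1.09 ± 0.16 with an adjusted p of 0.0669, or 0.69 with the mean of its probes. Its wild-type signal on array 1 was 10.5, and it was not kept when both genotypes had to be well above background. Dll1 and the brighter probe of Dll3 were thus lower than wild type on array 2 as well, by more than any of the 8 members on their brightest probe. The second probe of Dll3 was not: it read -2.18, -0.49 and -2.16, where Elavl4 read -0.54 on array 2.

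Among 13 other neural RNA-binding proteins measured of 15 listed, 1 rose and 0 fell, and the median log2 ratio was -0.88. The one that rose was Rbfox2, a splicing factor that also works outside the nervous system. Its log2 ratios were 1.90, 1.48 and 1.55, a mean of 1.64 ± 0.22 or 3.12-fold, with an adjusted p of 0.0453 in limma, and its second probe read 1.40 ± 0.26. The call ended without replicate 1 (0.292), without replicate 3 (0.170) with the authors' deposited values (0.0599) and with no limit on the local background (0.168). Its neuronal relative Rbfox3 (NeuN) read -1.82, -0.85 and -2.18, a mean of -1.61 ± 0.69 with an adjusted p of 0.0805.

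Relatives of the members were among them. Elavl2 (HuB) read -2.07, -0.91 and -1.51, a mean of -1.50 ± 0.58 with an adjusted p of 0.0752 in limma. Msi2, the relative of Msi1, read -0.87, -0.61 and -1.16, a mean of -0.88 ± 0.28 with an adjusted p of 0.113; its second probe had a mean of -0.06, and the mean of its probes gave -0.47. Elavl2 lay between Elavl3 and Elavl4 in its mean.

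The broadly expressed relatives had a median log2 ratio of 0.28 over 5 genes, and 0 were called. Elavl1 (HuR), the family member found in most cells, is in this list. Celf1, a regulator of splicing and RNA decay, read 1.73, 1.22 and 1.45, a mean of 1.47 ± 0.25 with an adjusted p of 0.0517 in limma. Another probe of Celf1 had a mean of 1.25, but the remaining one, also bright, read -0.15, 0.34 and -0.10, a mean of 0.03, and the mean of its probes gave 0.91. Qk (Quaking) read 1.23, 0.22 and 1.24, a mean of 0.90 ± 0.58 with an adjusted p of 0.185 in limma, but its probes disagreed, and their mean gave -0.046.

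Genes of the ventral neural tube domain of Olig2 and of its descendants had a median log2 ratio of -0.50 over 11 of 12 genes, with 3 lower on all arrays (against 19.1% of all genes) and 0 called. Nkx6-2, a homeodomain factor of ventral progenitors, read -0.98, -1.10 and -1.50, a mean of -1.19 ± 0.27 with an adjusted p of 0.0669 in limma. Pax6, a factor of neural progenitors and eye, read -3.77, -0.46 and -4.56, a mean of -2.93 ± 2.17 with an adjusted p of 0.156. Its mutant signal on array 1 was 12.2, and it was not kept when both genotypes had to be well above background. Sox10, of oligodendrocytes and neural crest, read -1.07, -0.22 and -1.05, a mean of -0.78 ± 0.49 with an adjusted p of 0.197. Pax6 had the uneven pattern of Olig2 and Neurog2 and Nkx6-2 did not.

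**Figure D3:**
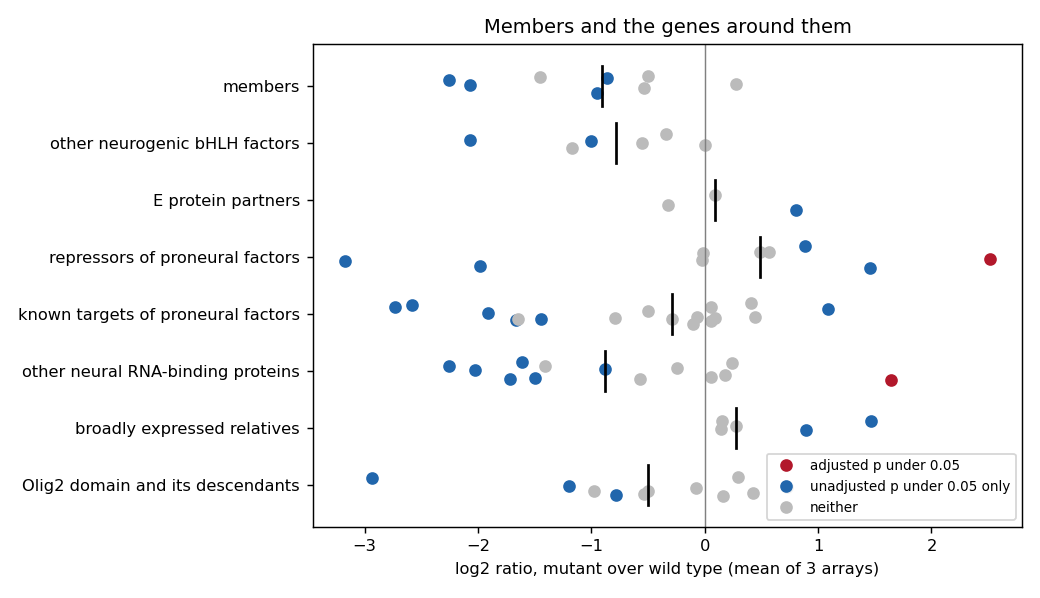
Mean log2 ratio of mutant over wild type for each measured gene of the members and of 7 lists around them, with a bar at each list's median and colours for the limma test. Rest and Rbfox2, to the right, are the 2 genes with an adjusted p under 0.05, and most members lie to the left of 0.

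Genes near to the members' median profile of -0.93, -0.17 and -1.58 over the 3 arrays were sought by the root mean square difference. The transcript TC1651788 was at a difference of 0.07, Rnf227 at 0.09, the nicotinic receptor subunit gene Chrnb2 at 0.09, and the planar polarity gene Vangl2 at 0.10. Likeness over 3 arrays is a description of 3 values.

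The direction of each member's mean was the same in every setting tried, as the plot of settings shows, while the size was not. Elavl4 ranged from -1.45 to -2.84, Neurog2 from -1.30 to -3.33, Olig2 from -0.58 to -2.67, Neurod1 from -0.51 to -1.84, Msi1 from -0.55 to -1.22, Nhlh1 from -0.17 to -0.87, Neurog1 from -0.18 to -0.99 and Elavl3 from 0.07 to 0.67. Without replicate 2, limma called 4 of 8 members, Elavl4 (adjusted p = 0.0136), Neurog2 (0.0212), Msi1 (0.0400) and Neurod1 (0.0429), where it called 5082 genes in all. Without replicate 1 or without replicate 3 it called 0. With a dye term in the fit it called Elavl4, at -1.69 and an adjusted p of 0.0310, among 2534 of 19667 genes. Only array 2 has the swapped dyes, so this term takes its difference from the other arrays out of the error.

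**Figure D4:**
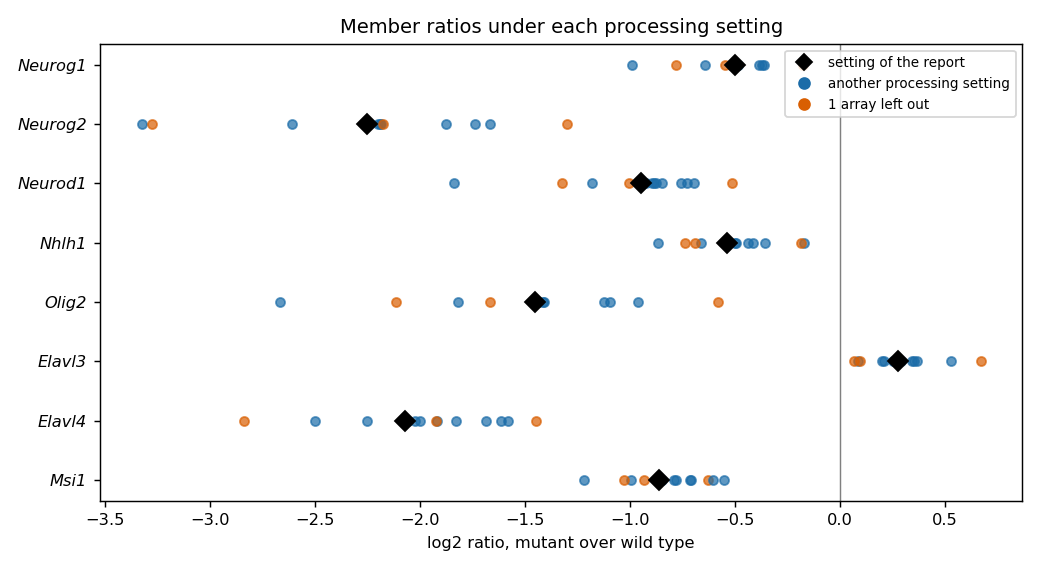
Log2 ratio of each member as reported (diamond), under the other processing settings (blue) and with 1 array left out (orange). No member crosses 0, and the points of Neurog2, Olig2 and Elavl4 spread the widest.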

How the data were processed

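RNA of 3 mutant and 3 wild-type cultures was amplified from 1 ug of total RNA, per the labels' protocols, and 300 ng per dye was hybridised to Agilent Mouse GE 4x44K v2 arrays. The deposited scanner files give, per the file headers, the intensity of spots and background (Agilent Feature Extraction, version 10.7.3.1) and the software's log10 ratio of red over green, corrected for background and dye. A second, deposited table has the authors' log2 ratios; the submitters' processing notes name limma, while centring and background steps were not given in the sources used here. Against the scanner's ratios of 12889 spots its columns had slopes of 0.885, 0.892 and 0.935 and medians of -0.01, 0.02 and -0.01.

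With limma 3.58.1 (R 4.3.3), spot means were corrected for the median local background by normexp (offset 50), the background being limited to 100 units, since 25 spots of array 2 reached up to 75739. Loess was run within arrays, with control spots at weight 0. Outlier spots were left out, spots of a probe averaged, and probes kept that the scanner flagged as well above background on all 3 arrays in either genotype. The brightest kept probe stood for a gene. Levels were taken after Aquantile scaling. The mean ratio was tested against 0 (lmFit, eBayes); the script was tested on simulated data. The array itself pairs mutant with wild type. With 3 arrays the test had 4.76 degrees of freedom in the median. Symbols came from the accession for 27234 probes, the symbol for 3576 and a synonym for 565 through RefSeq's table of GRCm38.p6; 8054 kept the file's name. Negative control spots read about 84 to 89 units in Cy3 over a local background of 39 to 40, and 46 to 48 in Cy5 over 36 to 38, so plain local subtraction leaves more in Cy3.

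The members, lists and settings were chosen with earlier results of these data known. Named genes are the members with every probe, from each list up to 4 genes of smallest unadjusted p under 0.05 (otherwise 2), and the 5 genes nearest to the members' median profile. Of these 5, 1 is not reported here. Tcf3, Pou5f1 and the other marker examples were named after their values were seen.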

Additional observations from a re-analysis of the deposited data

How the results depend on the processing

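The median of the members' log2 ratios stayed negative in all settings tried, from -0.56 without replicate 3 to -1.53 with the scanner's log ratio, and 5 to 7 members were lower on all arrays used. The number of members called in limma was 0, except for 1 with a dye term and a range of 0 to 4 when 1 replicate was left out. The number of genes called was 325, and it was 0 with no upper limit on the local background (3015 at an unadjusted p under 0.05), 0 with no background correction (3804), 0 with no filter on dim probes (4831) and 0 with the authors' deposited log ratios (3838). It was 732 with a normexp offset of 16, 769 with the scanner's log ratio, 605 with an intensity trend, 2534 with a dye term, 1352 at an adjusted p of 0.1, and 0 to 5082 with 1 replicate left out, the highest without replicate 2 and 0 without replicate 1 (1659 unadjusted) or replicate 3 (2370 unadjusted). A limit of 200 units gave 269, median centring 408, scaling between arrays 400, a filter on both genotypes 321 and the mean of a gene's probes 258. The filter on both genotypes left out Neurog1 among the members, and Nhlh2, Bhlhe22, Cbfa2t3 and Pax6 among the genes named from the lists. It also moved Neurod1 to its second probe, at -0.85. Rest was not called with no background limit (adjusted p = 0.168), no background correction (0.0607) or no filter (0.0702), and Rbfox2 in the same settings was at 0.168, 0.0576 and 0.0564. The mean of Qk turned to -0.046 with the mean of its probes. The dim signals of Neurog1, Neurog2, Neurod1 and Olig2 in the mutant bound the size of their ratios, which grew with less offset. For Neurog2 the mean was -2.25 in the main fit, -2.61 with an offset of 16 and -3.33 with the scanner's log ratio.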
